A study of Homo sapiens with 16 samples.

Results

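The data are 8 RNA-sequencing libraries of human melanoma lung metastases that had all been exposed to BRAF and MEK inhibitors and that differed in the diet of the host mouse. They were chosen by their labels and are 8 of the 16 libraries of the series: 4 from mice on a ketogenic diet with inhibitors (KT1 to KT4) and 4 from mice on a high fat diet with inhibitors (HT1 to HT4). The other 8 libraries, 4 on the ketogenic diet without inhibitors (KC) and 4 on the high fat diet without inhibitors (HC), entered the model and gave the diet effect in the absence of drug. In every group A375 MA2-Luc cells, an established human melanoma line, were given retro-orbitally, 250000 per animal, to NSG mice, which lack T, B and NK cells. The labels call each sample a lung metastasis, and KT and HT mice were gavaged with a BRAF-kinase inhibitor and an inhibitor of MEK 1/2, 3 times a week for 5 weeks. The labels give neither the agents' names nor their doses, and list no treatment for KC and HC, so whether these mice had a vehicle by gavage is not stated. A culture step is mentioned in the design text of the series, so it is unsettled whether cells were grown in culture before RNA was taken. The labels do not say that each library came from its own mouse, so p-values measure the spread between libraries. All 4 groups derive from 1 cell line.

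BRAF and MEK are successive kinases of the MAPK cascade, through which many melanomas with mutant BRAF drive their growth, and combined inhibition of both is a standard treatment of such tumours. A ketogenic diet is very low in carbohydrate, so that the liver turns fatty acids into ketone bodies, which other tissues oxidise, and insulin tends to be low. A high fat diet supplies much fat without the same restriction of carbohydrate. The comparison asks which transcripts of drug-exposed metastases differ with the host's diet.

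The KT libraries held 37099900 to 52536500 estimated counts and the HT libraries 51964400 to 59222800. Ribosomal RNA, which poly-A selection should remove, took 7.98%, 7.87%, 4.10% and 8.37% of the counts in KT1 to KT4, against 16.1%, 19.97%, 15.01% and 18.2% in HT1 to HT4. The share was 7.08% ± 2.00 in KT and 17.3% ± 2.20 in HT (SD, n = 4 each), a log2 difference of -1.34 with no overlap (exact permutation test, two-sided, on log2 values, p = 0.0286, the smallest that 70 assignments allow). This share moved with the diet, and its part in the results below was not tested beyond a fit that included the share. SOX10, the transcription factor of the melanocyte lineage, had 743 to 797 CPM in KT and 736 to 846 CPM in HT (CPM, counts scaled to the TMM-adjusted library size), and MITF, the master regulator of pigment cells, 105 to 130 and 101 to 141 CPM. The pigment genes PMEL, MLANA, TYR and DCT were all under 4 CPM in the 8 libraries. Within their own group KT4 and KT1 stood apart, with 493 and 379 genes more than 1 log2 unit from the mean of the other 3 KT libraries, against 73 and 105 for KT2 and KT3 and 12 to 55 for the HT libraries.

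After a filter on low counts 16012 genes were tested, and 27 passed (edgeR quasi-likelihood test with Benjamini-Hochberg adjustment over all genes, threshold 0.05), 0.169% of those tested. Of these 8 (0.05%) were higher and 19 (0.119%) lower in KT than in HT. Among the lower genes were the extracellular peptidases TRHDE, ANPEP and ENPEP, the growth arrest gene GAS1, SERTAD4, the keratin KRT6B, the laminin chain LAMA1 and the ribosomal RNA precursor RNA45S5. The higher group held KNOP1, a nucleolar protein, PCOLCE2, an enhancer of procollagen processing, PLEKHB1 and MBL2, and 4 transcripts that are non-coding, a pseudogene or without an annotation used here. Changes were small: the median absolute log2 fold change over all genes was 0.17 at a median SE of 0.168, and 11 of the 27 genes changed by more than 1 log2 unit. An unadjusted p under 0.05 was reached by 2032 genes (12.7%), 1157 higher (7.23%) and 875 lower (5.46%). The KT and HT libraries did not overlap in 1143 genes (7.14%), 553 with KT above (3.45%) and 590 with KT below (3.68%).

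The number of genes past the test depended on the method and on single libraries. DESeq2 called 345 genes (2.15%), 195 higher (1.22%) and 150 lower (0.937%), and limma voom with sample weights called 1057 (6.60%), 471 higher (2.94%) and 586 lower (3.66%); both sets held all 27 genes. Scaling by library size alone left 1 gene, a lower one, and moved the median log2 fold change of all genes to 0.19 from 0.02. A fit of the 8 compared libraries without the other groups called 0 genes (1475 at an unadjusted p under 0.05), and so did a fit that included the ribosomal RNA share (848 at an unadjusted p under 0.05). Leaving out 1 library gave 17 (KT1), 24 (KT2), 6 (KT3), 47 (KT4), 20 (HT1), 3 (HT2), 4 (HT3) or 3 (HT4) genes, and leaving out a library of the groups not compared gave 11 (KC1), 20 (KC2), 9 (KC3), 39 (KC4), 17 (HC1), 6 (HC2), 17 (HC3) or 64 (HC4). Without KT4 and HT1, the library of each group least like the others, 52 genes passed, 12 of them among the 27. TRHDE and GAS1 were the only genes of the 27 that passed in each of the 8 fits that left out 1 KT or HT library; ANPEP was lost in 1 of these fits, CARD6 in 2, and ENPEP and PLEKHB1 in all 8. All 27 kept their direction in every alternative in which they were fitted.

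**Figure D1:**
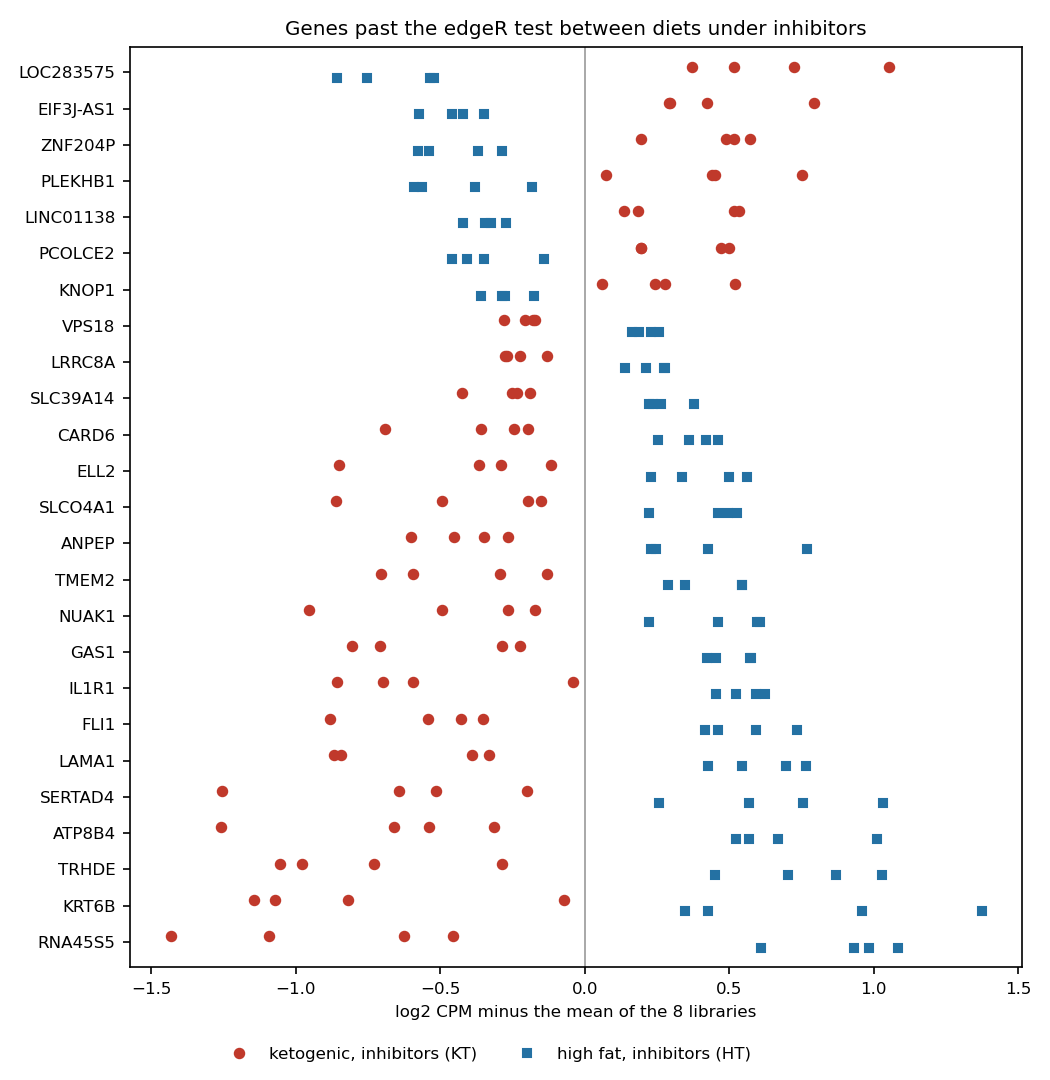
Genes past the edgeR test between KT and HT, 25 of 27 (MBL2 and ENPEP, at or near 0 counts in one group, are left out). Each point is 1 library, placed by its log2 CPM minus the mean of the 8 libraries; red circles are KT and blue squares HT, and the circles and squares of each gene do not overlap.

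The lower genes are described first, by the place where their proteins act. TRHDE (chromosome 12, 72087266 to 72670757, hg38, here and below the GENCODE 29 gene) encodes the membrane peptidase that degrades thyrotropin-releasing hormone. It had 3.11, 3.70, 5.03 and 2.95 CPM in KT1 to KT4, against 8.38, 12.5, 9.98 and 11.2 CPM in HT1 to HT4. Every KT library lay under every HT library, and the log2 fold change was -1.51 (SE 0.20, edgeR adjusted p = 0.00646). ANPEP (chromosome 15, 89784889 to 89815401), aminopeptidase N or CD13, which trims peptides at the cell surface, had 54.2, 61.7, 58.3 and 48.9 CPM in KT and 99.7, 126, 86.95 and 88.1 CPM in HT. It fell by 0.85 on the log2 scale (SE 0.13, edgeR adjusted p = 0.0179), a call that was lost without HT2 (adjusted p = 0.0669). ENPEP (chromosome 4, 110365733 to 110565285), aminopeptidase A, which cleaves angiotensin II, was counted 0, 1, 1 and 1 times in KT and 21, 15, 24 and 14 times in HT. The HT level was 23 times the KT level, with a 95% interval of 7.58 to 114 that covers counting error alone (edgeR adjusted p = 0.0374).

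GAS1 (chromosome 9, 86944363 to 86947189), a membrane-anchored protein first found in growth-arrested mouse fibroblasts and a co-receptor of Hedgehog signalling, had the smallest adjusted p. It had 10.6, 14.2, 14.8 and 9.88 CPM in KT and 23.2, 25.7, 25.8 and 23.7 CPM in HT, a log2 fold change of -0.99 (SE 0.12, edgeR adjusted p = 0.00581). The 4 HT libraries lay close together and well above the highest KT library. SERTAD4, a SERTA domain protein, had 14.9, 18.5, 13.6 and 8.93 CPM in KT and 43.5, 35.9, 25.4 and 31.5 CPM in HT (log2 -1.28, SE 0.20, edgeR adjusted p = 0.0185). NUAK1, a kinase related to AMPK, averaged 7.96 ± 1.78 CPM in KT and 15.1 ± 1.79 CPM in HT (SD, n = 4 each; log2 -0.92, SE 0.17). The ETS-family transcription factor FLI1 averaged 2.40 ± 0.37 and 5.13 ± 0.52 CPM in KT and HT (log2 -1.09, SE 0.19). ELL2, a transcription elongation factor, averaged 13.2 ± 2.65 and 22.9 ± 2.37 CPM (log2 -0.79, SE 0.15). The edgeR adjusted p was 0.0374 for NUAK1, 0.0351 for FLI1 and 0.0380 for ELL2.

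Of the receptors and membrane proteins, IL1R1, the signalling receptor of interleukin-1, had 1.56, 2.74, 1.87 and 1.74 CPM in KT and 3.86, 4.35, 4.25 and 4.05 CPM in HT (log2 -1.06, SE 0.20, edgeR adjusted p = 0.0374). TMEM2, a cell-surface hyaluronidase now named CEMIP2, was the most abundant protein-coding gene of the 27, with 203, 302, 269 and 219 CPM in KT against 420.2, 403, 482 and 482 CPM in HT (log2 -0.85, SE 0.15). SLC39A14, the zinc and iron importer ZIP14, had 75.0, 85.6, 88.4 and 84.6 CPM in KT and 130.8, 117, 119 and 121 CPM in HT (log2 -0.55, SE 0.10). SLCO4A1, an organic anion transporter, averaged 19.9 ± 4.25 CPM in KT and 35.3 ± 3.26 CPM in HT (log2 -0.83, SE 0.15). ATP8B4, a P4-type ATPase, averaged 2.00 ± 0.51 and 5.14 ± 0.83 CPM (log2 -1.35, SE 0.24). LRRC8A, the obligate subunit of the volume-regulated anion channel, averaged 71.8 ± 3.40 and 98.0 ± 4.38 CPM (log2 -0.45, SE 0.08). Each of these 5 genes had an edgeR adjusted p of 0.0374. LRRC8A and VPS18, a core subunit of the complexes that tether endosomes to lysosomes, had the smallest changes that passed (VPS18 35.8 ± 1.19 CPM in KT, 47.8 ± 1.38 CPM in HT, log2 -0.42, SE 0.07).

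Among structural genes, LAMA1, the alpha-1 chain of laminin, had 1.31, 1.79, 1.87 and 1.29 CPM in KT and 3.42, 3.99, 3.80 and 3.16 CPM in HT (log2 -1.20, SE 0.21, edgeR adjusted p = 0.0351). KRT6B, a keratin of stressed epithelia, had 1.96, 2.07, 2.46 and 4.13 CPM in KT and 5.84, 5.51, 11.2 and 8.45 CPM in HT (log2 -1.55, SE 0.29, edgeR adjusted p = 0.0374). KRT6B is nearly identical to KRT6A and KRT6C, and reads shared between them may have been split by the counting; KRT6A averaged 0.243 CPM in KT and 0.505 CPM in HT and did not pass (log2 -1.04, SE 0.77). CARD6, a caspase-recruitment domain protein, averaged 18.5 ± 2.69 CPM in KT and 30.8 ± 1.89 CPM in HT (log2 -0.74, SE 0.11, edgeR adjusted p = 0.0179). RNA45S5, the precursor from which ribosomal RNAs are cut, had 2070, 1842, 1052 and 1331 CPM in KT and 5620, 6019, 4332 and 5416 CPM in HT (log2 -1.76, SE 0.29, edgeR adjusted p = 0.0272). Its copies lie in repeated arrays, so the level stands for all of them, and it belongs to the ribosomal RNA share given above. RNA28S5, the mature large-subunit RNA, did not overlap between the groups either and had an adjusted p of 0.0853 (log2 -1.53, SE 0.34).

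Of the 8 higher genes, KNOP1 (chromosome 16, 19701934 to 19718235), a lysine-rich nucleolar protein, had 45.9, 39.4, 44.7 and 54.3 CPM in KT and 31.0, 33.5, 29.5 and 31.2 CPM in HT (log2 0.56, SE 0.10, edgeR adjusted p = 0.0374). PCOLCE2 had 13.0, 10.5, 10.5 and 12.8 CPM in KT and 6.93, 7.22, 6.69 and 8.33 CPM in HT (log2 0.68, SE 0.12, edgeR adjusted p = 0.0351). PLEKHB1, a pleckstrin homology domain protein, averaged 9.66 ± 1.82 CPM in KT and 5.29 ± 0.71 CPM in HT (log2 0.87, SE 0.17, edgeR adjusted p = 0.0445). MBL2, the mannose-binding lectin that starts the lectin pathway of complement and is normally a liver product, was counted 10, 22, 7 and 8 times in KT and 0, 0, 1 and 1 times in HT. That is 25.2 times the HT level, with a 95% interval of 6.59 to 214 for counting error alone (edgeR adjusted p = 0.0201), from a gene with at most 0.379 CPM in these 8 libraries. The long non-coding RNA LINC01138 averaged 17.2 ± 2.50 and 10.6 ± 0.44 CPM in KT and HT (log2 0.69, SE 0.13), and the pseudogene ZNF204P 4.45 ± 0.49 and 2.41 ± 0.23 CPM (log2 0.89, SE 0.17). EIF3J-AS1, a transcript that starts beside EIF3J on the opposite strand, had 11.4, 8.11, 8.08 and 8.86 CPM in KT and 5.18, 4.43, 4.81 and 4.93 CPM in HT (log2 0.92, SE 0.17, edgeR adjusted p = 0.0374). The counting is not stated to use strand, so its reads cannot be told from those of EIF3J where they overlap; EIF3J itself did not pass (log2 0.15, SE 0.11). LOC283575 was counted 157, 93, 93 and 102 times in KT and 47, 51, 46 and 42 times in HT (log2 1.35, SE 0.23, edgeR adjusted p = 0.0345).

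The promoters of 4 of these genes are printed to show the sequence upstream of a RefSeq start of the 2 calls that held in every leave-one-out fit (TRHDE and GAS1) and of a lower and a higher gene with a motif match. Each is the 250 bases before a RefSeq transcription start on GRCh38.p14, read in the direction of the gene. Capitals mark an AP-1 match (TGANTCA) in CARD6 and ETS matches (CCGGAAG) in KNOP1; both motifs were searched on both strands, and TRHDE and GAS1 hold neither. The regions are chr12:72272120-72272369 on the plus strand, chr9:86947507-86947756 on the minus strand, chr5:40841117-40841366 on the plus strand and chr16:19718228-19718477 on the minus strand, in the order of the lines. RefSeq and GENCODE starts differ: the TRHDE region lies well inside the GENCODE gene given above, so it is the promoter of a RefSeq transcript and not of the most upstream GENCODE start, and the CARD6 region overlaps the GENCODE gene.
TRHDE: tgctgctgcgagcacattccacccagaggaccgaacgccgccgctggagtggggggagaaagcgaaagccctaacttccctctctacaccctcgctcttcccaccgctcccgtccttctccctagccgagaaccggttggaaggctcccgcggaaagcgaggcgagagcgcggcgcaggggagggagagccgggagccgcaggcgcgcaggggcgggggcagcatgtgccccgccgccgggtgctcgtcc
GAS1: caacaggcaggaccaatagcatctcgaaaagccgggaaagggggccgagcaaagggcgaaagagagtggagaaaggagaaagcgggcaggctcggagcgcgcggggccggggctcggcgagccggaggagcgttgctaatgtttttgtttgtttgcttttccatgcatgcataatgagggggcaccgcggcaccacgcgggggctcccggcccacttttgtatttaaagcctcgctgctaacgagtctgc
CARD6: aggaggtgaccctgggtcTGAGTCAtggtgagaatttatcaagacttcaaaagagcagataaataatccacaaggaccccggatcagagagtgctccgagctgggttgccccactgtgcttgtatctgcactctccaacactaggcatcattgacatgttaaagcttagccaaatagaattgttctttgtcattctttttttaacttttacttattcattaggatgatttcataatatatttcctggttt
KNOP1: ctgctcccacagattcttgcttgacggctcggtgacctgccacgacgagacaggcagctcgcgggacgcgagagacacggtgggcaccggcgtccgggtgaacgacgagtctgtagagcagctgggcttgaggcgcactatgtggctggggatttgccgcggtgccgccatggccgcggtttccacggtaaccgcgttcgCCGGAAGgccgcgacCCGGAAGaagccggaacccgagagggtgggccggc
Of the 27 genes 15 had a RefSeq promoter in the table used, with 24 promoters in all. Matches to the AP-1 pattern stood in 2 of the 24 (TGAGTCA in CARD6 and TGAATCA in PLEKHB1) and ETS matches in 3 (ATP8B4, KNOP1 and LRRC8A). The AP-1 search left the middle base free, so its count and its share over all promoters are of that looser pattern. Among all 35116 promoters listed, 6.57% hold an AP-1 match and 8.52% an ETS match in the 250 bases before the start. Each listed sequence also runs 50 bases past the start, a part left out of these shares. A match says only that the letters are present.

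The diet effect with inhibitors was then set beside the diet effect without them. Without inhibitors 2163 genes passed the edgeR test between KC and HC (13.5%), 1280 higher (7.99%) and 883 lower (5.51%) in KC, and 4909 (30.7%) reached an unadjusted p under 0.05. The difference between the effects, (KT minus HT) minus (KC minus HC), passed for 1444 genes (9.02%), 698 above 0 (4.36%) and 746 below it (4.66%), and for 23 of the 27. The exceptions were RNA45S5 (adjusted p = 0.0644), LAMA1 (0.0513), PLEKHB1 (0.232) and MBL2 (0.142). The 27 were picked by KT minus HT, which is itself part of this difference, so their count cannot be compared with the 9.02%. Across all 16012 genes the 2 effects, which share no library, had a Pearson correlation of -0.18 and a Spearman correlation of -0.21, and 42.2% of genes had the same sign. These values describe the genes, which are not replicates. Of the 2163 genes past the test without inhibitors 762 had the same sign with them. Without the 3 libraries with over 30% ribosomal RNA (HC2, HC3 and KC2) 0 genes passed for the difference and 0 between KC and HC, and 3 passed between KT and HT; the count for the difference was 238 when scaling by library size alone. The count for the difference also rested on single libraries: it was 407 without KC2, 455 without KC1, 500 without HC3, 566 without HT4, 599 without HT2, 662 without KT1, 684 without HT3, 722 without HC1, 769 without KC3 and 2636 without KT4. The count between KC and HC was 778 without KC2, 919 without KC1, 1044 without HC3 and 1409 without KC3.

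**Figure D2:**
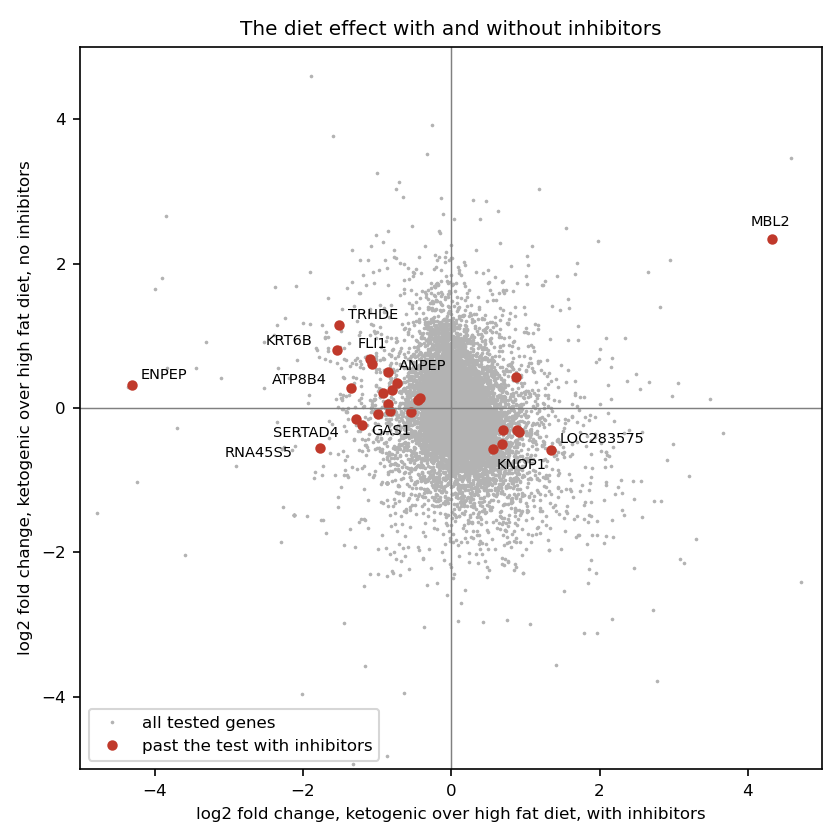
Log2 fold change of ketogenic over high fat diet with inhibitors (KT over HT, x axis) against the same without inhibitors (KC over HC, y axis), 1 point per tested gene, with the 27 genes past the test with inhibitors in red; 19 genes lie outside the range shown. Of the red points 8 have the same sign on both axes, among them MBL2, which is above 0 on both.

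The same sign in both effects was seen in 8 of the 27 genes, against 42.2% of all tested genes. Without inhibitors 8 of the 27 also passed the test, against 13.5% of all tested genes. Of those 8, MBL2 alone moved in the same direction, with 0.209 ± 0.114 CPM in KT against 0.00806 ± 0.00931 CPM in HT and 0.396 ± 0.0295 CPM in KC against 0.0752 ± 0.0187 CPM in HC (SD, n = 4 each, here and in the rest of the paragraph). The other 7 were TRHDE, ANPEP, FLI1, IL1R1 and CARD6, lower in KT than HT but higher in KC than HC, and KNOP1 and PCOLCE2, higher in KT than HT but lower in KC than HC. TRHDE averaged 3.70 ± 0.94 CPM in KT and 10.5 ± 1.75 CPM in HT, and 9.13 ± 1.78 CPM in KC and 4.12 ± 0.69 CPM in HC, so that its levels crossed (difference of effects -2.66, SE 0.28, edgeR adjusted p = 0.000593). ANPEP averaged 55.8 ± 5.53 CPM in KT, 100.3 ± 18.3 in HT, 94.3 ± 12.5 in KC and 67.0 ± 6.505 in HC (difference of effects -1.34, SE 0.18, edgeR adjusted p = 0.00421). GAS1 showed another pattern, with 12.3 ± 2.48 CPM in KT, 24.6 ± 1.34 in HT, 12.9 ± 0.64 in KC and 13.7 ± 1.04 in HC: the HT libraries stood alone above the other 3 groups. SERTAD4 (14.0 ± 3.96 CPM in KT, 34.1 ± 7.62 in HT, 14.4 ± 2.58 in KC and 15.96 ± 1.34 in HC) likewise had its highest level in HT. KNOP1 averaged 46.1 ± 6.14 CPM in KT, 31.3 ± 1.67 in HT, 47.3 ± 5.05 in KC and 69.8 ± 4.28 in HC.

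By the order of the 4 group means, HT was the highest group in 17 of the 19 genes that were lower in KT, and the lowest in all 8 that were higher in KT. Over all tested genes with KT below HT, HT was the highest group in 58.4%, and over all with KT above HT it was the lowest in 58.3%. KT was the lowest group in 10 of the 19 and the highest in 2 of the 8, against 34.9% and 34.9% over all genes. The genes of this count were picked by the test of KT against HT, and the share has no test.

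**Figure D3:**
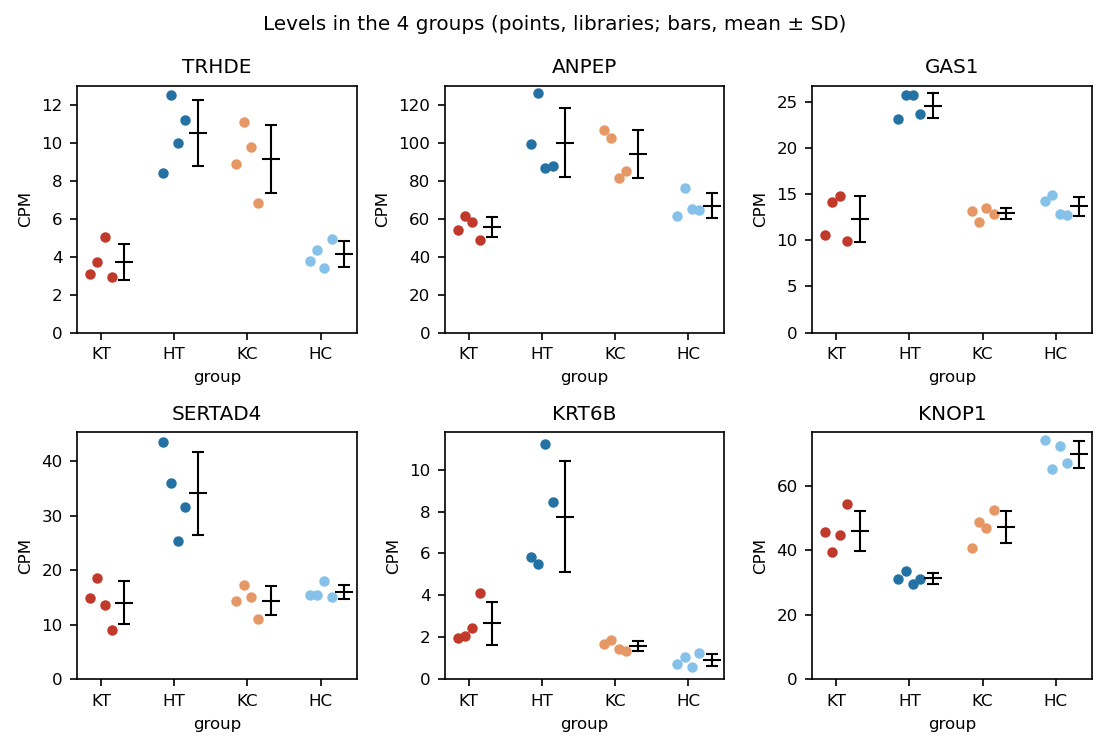
CPM of 6 genes past the test in the order KT, HT, KC, HC; points are libraries and bars the mean ± SD of 4. TRHDE and ANPEP are low in KT and HC and high in HT and KC, GAS1, SERTAD4 and KRT6B are high in HT, and KNOP1 is lowest in HT.

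Pathways were followed in 40 gene lists, and 0 members passed the edgeR test between KT and HT in any of them except those holding LAMA1 (collagens and basement membrane), SLC39A14 (iron handling) and RNA45S5 (ribosomal RNA). Per list and direction, 0 to 5 members reached an unadjusted p under 0.05, DESeq2 called 0 to 3 and voom called 0 to 5. Over all tested genes 7.23% were higher and 5.46% lower at an unadjusted p under 0.05. DESeq2 called 1.22% higher and 0.937% lower, and voom 2.94% and 3.66%. Median log2 fold changes below are read against 0.02 over all genes. Apart from genes fixed by name, the members named below were picked as those with the smallest p between KT and HT in their list. Their lack of overlap, which 7.14% of all tested genes showed, and their DESeq2 and voom values come from the same libraries. These add no separate support. The targets of the drugs did not pass. BRAF averaged 12.2 CPM in KT and 12.3 CPM in HT (log2 -0.01, SE 0.11), MAP2K1 (MEK1) 59.5 and 64.0 CPM (log2 -0.10, SE 0.09) and MAP2K2 (MEK2) 139 and 140.0 CPM (log2 -0.01, SE 0.11). Of 14 MAPK core genes 0 passed, 3 were above 0 and 11 below, with a median of -0.07, which was 0.09 when scaling by library size alone. The genes driven by MAPK signalling, a readout of the pathway's activity, had 0 of 20 past the test and a median of -0.08; 1 was higher and 2 lower at an unadjusted p under 0.05. EPHA4, an ephrin receptor, had 5.06, 8.42, 9.99 and 5.94 CPM in KT and 12.2, 12.9, 12.0 and 10.3 CPM in HT, without overlap, and an adjusted p of 0.241. SPRED1, a brake on RAS, averaged 90.4 and 107 CPM (log2 -0.25, adjusted p = 0.283).

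Receptor kinases and their ligands had 0 of 21 past the test. KDR, the main receptor of VEGF, had 29.6, 46.5, 46.6 and 26.3 CPM in KT and 75.9, 70.3, 72.9 and 81.3 CPM in HT (log2 -1.01, SE 0.23, edgeR adjusted p = 0.0922). It did not pass the edgeR test, while DESeq2 (adjusted p = 0.00362) and voom (0.00465) called it, and the groups did not overlap. HGF, the ligand of MET, had 7.74, 8.54, 7.03 and 4.46 CPM in KT and 4.201, 3.94, 3.74 and 4.43 CPM in HT, with KT4 just above the highest HT library (log2 0.77, SE 0.19, edgeR adjusted p = 0.120, DESeq2 0.0156, voom 0.00391). Of 15 melanocyte genes 0 passed. TYR, the pigment enzyme tyrosinase, was counted 112, 143, 91 and 227 times in KT and 34, 24, 47 and 15 times in HT, without overlap (log2 2.34, SE 0.79, edgeR adjusted p = 0.229, voom adjusted p = 0.00645). Its sign turned when the ribosomal RNA share was in the fit (log2 -0.07). Of 18 genes of dedifferentiated melanoma 0 passed. Its member THBS1, the matrix protein thrombospondin-1, had 58.8, 113, 81.9 and 78.2 CPM in KT and 142.6, 199, 159 and 168 CPM in HT, and lay just outside the threshold (log2 -1.01, SE 0.20, edgeR adjusted p = 0.0512, DESeq2 0.000509, voom 0.0148). WNT5A, a secreted ligand tied to invasive melanoma, averaged 38.7 and 55.0 CPM in KT and HT, without overlap (log2 -0.51, SE 0.12, edgeR adjusted p = 0.110, DESeq2 0.0161, voom 0.00743).

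The extracellular matrix list had 1 of 26 genes past the test, LAMA1, and 21 of 26 were below 0, with a median of -0.16, which was 0.00 when scaling by library size alone or with voom and -0.06 without KT4. FN1, fibronectin, had 342, 295, 285 and 145 CPM in KT and 582, 629, 451 and 342 CPM in HT (log2 -0.91, SE 0.23, edgeR adjusted p = 0.123, DESeq2 0.0108, voom 0.0453), with KT1 just above HT4. KT4 was lowest for this list, at -0.53 log2 units against -0.11 to 0.07 in the other KT libraries and -0.08 to 0.31 in HT. Integrins were likewise low in KT4 alone among the 8 (-0.56, the others -0.12 to 0.15), and 0 of 16 passed.

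The next lists follow fuel use. Ketone body enzymes and transporters had 0 of 12 tested members past the test, 7 above and 5 below 0, with a median of 0.05. OXCT1, the enzyme that activates ketone bodies for oxidation, averaged 63.2 CPM in KT and 68.3 CPM in HT (log2 -0.11, SE 0.13), ACAT1, which splits acetoacetyl-CoA, 63.0 and 57.1 CPM (log2 0.14, SE 0.10), and BDH1, which interconverts the ketone bodies, 10.2 and 12.2 CPM (log2 -0.25, SE 0.14). SLC16A6, a transporter that exports ketone bodies in zebrafish liver, had 47.8, 27.4, 21.4 and 44.1 CPM in KT and 63.4, 52.2, 64.8 and 67.5 CPM in HT, without overlap (log2 -0.82, SE 0.32, edgeR adjusted p = 0.296, DESeq2 0.134, voom 0.00424). Fatty acid oxidation and the PPAR axis had 0 of 28 past the test and a median of 0.08, with 21 above 0. CPT1C, a carnitine palmitoyltransferase homologue of the endoplasmic reticulum found mainly in neurons, had 10.3 CPM in KT1 and 5.47 to 5.94 CPM in the other KT libraries, against 3.29 to 6.73 CPM in HT. Fatty acid synthesis and uptake (0 of 25, median -0.04), cholesterol synthesis (0 of 24, median -0.06), the citric acid cycle (0 of 24, median 0.01) and the nuclear-encoded respiratory chain (0 of 28, median 0.07) lay near the median of all genes.

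Glycolysis had 0 of 22 past the test and a median of 0.05. Its 2 strongest members differed in sign. PFKFB4, which makes the activator of phosphofructokinase, had 177, 176, 248 and 339 CPM in KT and 142, 137, 168 and 165 CPM in HT, without overlap (log2 0.62, SE 0.17, edgeR adjusted p = 0.146, DESeq2 0.0359, voom 0.0725). SLC2A1, the glucose transporter GLUT1, had 52.8, 58.4, 74.5 and 62.3 CPM in KT and 80.8, 82.9, 77.2 and 79.1 CPM in HT, also without overlap (log2 -0.37, SE 0.10, edgeR adjusted p = 0.148). The insulin and IGF axis had the lowest median of the pathway lists other than ribosomal RNA, -0.20, with 12 of 18 below 0, 0 past the test and 3 lower at an unadjusted p under 0.05. Its value ranged from -0.29 to -0.14 as single KT or HT libraries were left out and was -0.04 when scaling by library size alone. STC1, the secreted hormone stanniocalcin-1, had 67.5, 34.2, 49.3 and 63.1 CPM in KT and 145, 90.7, 139 and 106 CPM in HT, without overlap (log2 -1.17, SE 0.41, edgeR adjusted p = 0.250, DESeq2 0.147, voom 0.0256). IRS2, an adaptor of the insulin receptor, averaged 204 and 269.7 CPM in KT and HT (log2 -0.40, SE 0.12, edgeR adjusted p = 0.156, DESeq2 0.0445, voom 0.0107) and was lower in KC than in HC (log2 -0.44, edgeR adjusted p = 0.0195).

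**Figure D4:**
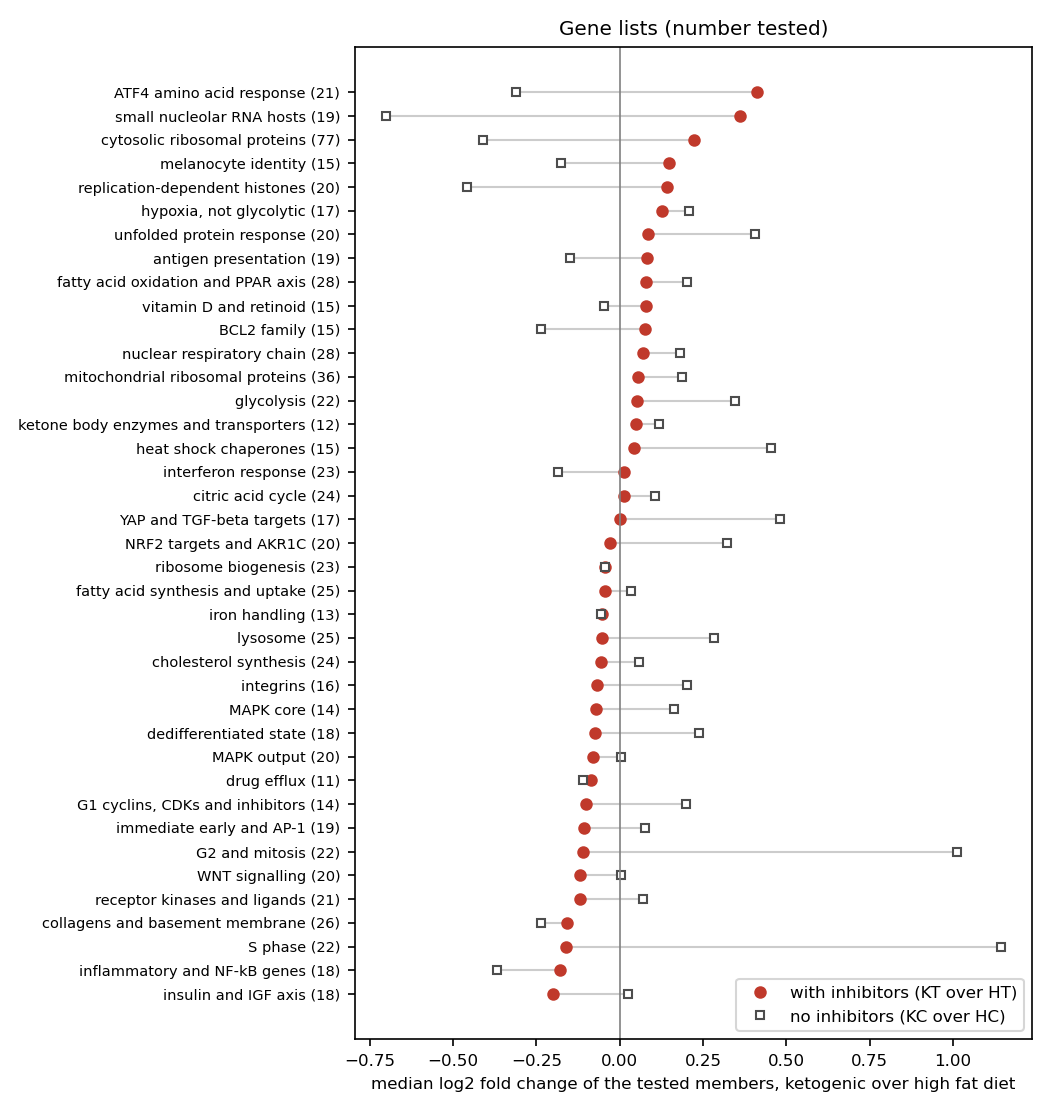
Median log2 fold change (ketogenic over high fat diet) of the tested members of 39 pathway lists, number tested in brackets; filled circles are with inhibitors (KT over HT) and open squares without (KC over HC). With inhibitors the medians lie between -0.20 and 0.41, while without them S phase and G2 and mitosis lie above 1.

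By list medians, S phase and G2 and mitosis were the 2 pathway lists whose diet effects with and without inhibitors lay farthest apart; the erythroid and plasma markers lay farther apart still (-0.88 with inhibitors, 0.83 without). With inhibitors 0 of 22 S phase genes passed, 19 were below 0 and the median was -0.16. Without inhibitors 19 of the 22 were higher on the ketogenic diet, with a median of 1.14, and the difference of effects passed for 19, all below 0. Over all tested genes 7.99% were higher without inhibitors, and 4.66% passed below 0 for the difference. FEN1, a nuclease of DNA replication, had 90.4, 141, 131 and 122 CPM in KT and 164, 197, 179.6 and 183 CPM in HT (log2 -0.58, SE 0.17, edgeR adjusted p = 0.156, DESeq2 0.0515, voom 0.0433), and was higher in KC than in HC (log2 1.09, SE 0.17). The small S phase median rested on KT1, which lay at -0.71 log2 units while KT2 to KT4 lay between -0.0024 and 0.19, and it was 0.01 without KT1, 0.01 when scaling by library size alone and 0.13 with the ribosomal RNA share in the fit. Genes of G2 and mitosis had 0 of 22 past the test and a median of -0.11, which was 0.11 without KT1, 0.07 with voom and 0.07 when scaling by library size alone; KT1 was lowest at -0.80 and KT3 highest at 0.46. Of the G1 regulators 0 of 14 passed. CDKN1B, the inhibitor p27, had 65.4, 65.9, 73.8 and 67.3 CPM in KT and 84.6, 80.3, 93.1 and 89.9 CPM in HT (log2 -0.35, SE 0.09, edgeR adjusted p = 0.123, DESeq2 0.0180, voom 0.0171). CDK6, the kinase that starts the cycle with cyclin D, had 52.9, 66.8, 69.3 and 65.0 CPM in KT and 52.0, 50.7, 45.6 and 48.2 CPM in HT, with KT1 just above the highest HT library (log2 0.37, SE 0.10, edgeR adjusted p = 0.123, DESeq2 0.0279, voom 0.00319).

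Among stress programmes, the list of ATF4 targets, which cells switch on when amino acids run short, had the highest median of the pathway lists, 0.41, with 18 of 21 above 0 and 0 past the test. KT4 carried this value, at 1.38 log2 units while the other 7 libraries lay between -0.48 and 0.02, and the median was -0.25 without KT4 and -0.17 with voom. DDIT3, the transcription factor CHOP, had 15.01, 15.4, 17.5 and 182 CPM in KT and 17.1, 11.7, 13.8 and 11.8 CPM in HT (log2 2.08, SE 0.72, edgeR adjusted p = 0.247). Heat shock genes and hypoxia genes had 0 of 15 and 0 of 17 past the test and were highest in KT3 (0.37 and 0.27). CA9, a carbonic anhydrase induced by low oxygen, was counted 1, 0, 115 and 7 times in KT and 0, 3, 0 and 3 times in HT, so that nearly all of its counts came from KT3. The unfolded protein response (0 of 20, median 0.09) and lysosomal genes (0 of 25, median -0.05) lay near the median of all genes. Of 20 tested NRF2 targets, genes of the response to oxidants, 0 passed the edgeR test and the median was -0.03. At an unadjusted p under 0.05, 5 were lower and 0 higher, against 5.46% and 7.23% of all tested genes. Voom called 5 of these targets lower and 1 higher, against 3.66% and 2.94% of all genes, while DESeq2 called 0. TXNRD1, a thioredoxin reductase among them, had 132, 174, 168 and 105 CPM in KT and 177, 204, 214 and 215 CPM in HT, without overlap (log2 -0.48, SE 0.14, edgeR adjusted p = 0.156, DESeq2 0.0538, voom 0.0313).

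No member of the translation lists passed the edgeR test; in ribosome biogenesis DESeq2 called 1 lower (RRS1) and voom 3 lower, and in mitochondrial ribosomal proteins voom called 1 lower. All 77 cytosolic ribosomal protein genes were above 0, with a median of 0.22 (0 past the test, 3 higher at an unadjusted p under 0.05), and without inhibitors their median was -0.41. Host genes of small nucleolar RNAs, whose introns carry the guides of ribosomal RNA modification, had 18 of 19 above 0, a median of 0.36 and 0 past the test, against -0.70 without inhibitors with 8 lower. The difference of effects passed for 9 of the 77 and for 10 of the 19, all above 0. Over all tested genes 4.36% passed above 0 for the difference, and 5.51% were lower without inhibitors. Both lists were high in KT1 (0.47 and 0.49) and KT4 (0.41 and 0.72) and low in KT2 (-0.22 and -0.28) and KT3 (-0.23 and -0.29), with HT between -0.27 and 0.10. The medians were 0.10 and 0.34 without KT1, 0.13 and 0.31 without KT4, and -0.05 and 0.03 with voom. SNHG3 had 61.6, 47.5, 47.9 and 62.4 CPM in KT and 30.5, 38.2, 46.5 and 43.9 CPM in HT, without overlap (log2 0.46, SE 0.15, edgeR adjusted p = 0.200). The histone list, whose members mostly lack poly-A tails, ran from -1.03 in KT2 to 1.39 in KT4, and its median of 0.14 was -0.92 without KT4, -1.27 with voom and 2.29 with the ribosomal RNA share in the fit. Ribosome biogenesis factors had 0 of 23 past the test and a median of -0.04. RRS1 had 60.9, 56.7, 53.7 and 60.8 CPM in KT and 72.1, 74.9, 71.1 and 75.6 CPM in HT, without overlap (log2 -0.34, SE 0.08, edgeR adjusted p = 0.111, DESeq2 0.00846, voom 0.00319).

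**Figure D5:**
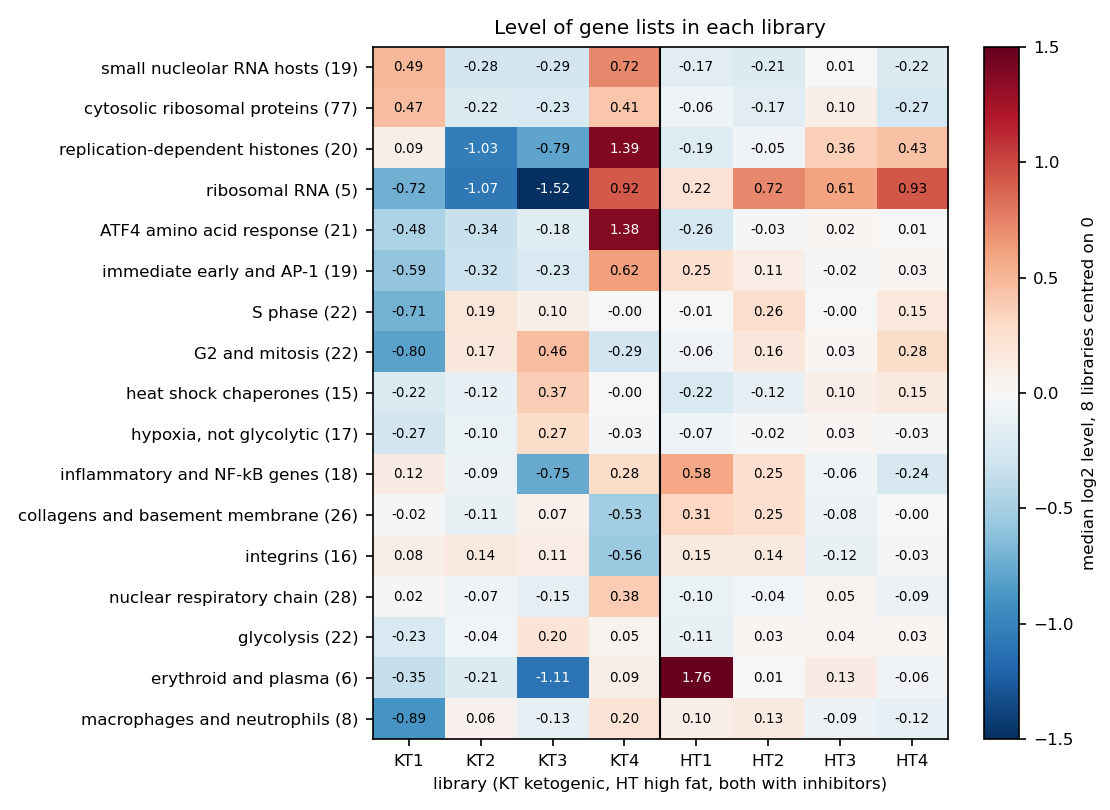
Median log2 level of the tested members of 17 gene lists (number in brackets) in each library, each gene centred on its mean over the 8 libraries; KT1 to KT4 are left of the line and HT1 to HT4 right of it. KT4 stands out for ATF4 targets (1.38) and histones (1.39), KT1 for low S phase (-0.71) and G2 and mitosis (-0.80), and HT1 for erythroid and plasma genes (1.76).

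Inflammatory and NF-kB genes had 0 of 18 past the test, 15 below 0 and a median of -0.18, which was -0.05 without KT3 and -0.04 when scaling by library size alone. CXCL8, interleukin-8, had 133, 129, 67.1 and 124 CPM in KT and 296, 228, 179 and 93.5 CPM in HT (log2 -0.81, SE 0.42, edgeR adjusted p = 0.434), so HT4 lay within the range of KT. Immediate early genes, which also respond to handling of tissue, had 0 of 19 past the test and a median of -0.11 (0.10 without KT1 and 0.05 when scaling by library size alone), and were highest in KT4 (0.62) and lowest in KT1 (-0.59). Interferon genes (0 of 23, median 0.01) and antigen presentation (0 of 19, median 0.08) lay near the median of all genes. STEAP3, an iron reductase in the list that holds SLC39A14, had 8.53, 7.32, 8.74 and 6.89 CPM in KT and 11.2, 10.3, 10.3 and 11.3 CPM in HT, without overlap (log2 -0.45, SE 0.11, edgeR adjusted p = 0.110, DESeq2 0.00607, voom 0.0133), and was lower in KC than in HC (log2 -0.49, edgeR adjusted p = 0.0106). The remaining lists, for YAP and TGF-beta targets, BCL2 family, WNT signalling, vitamin D and retinoid genes, mitochondrial ribosomal proteins and drug efflux, had 0 members past the test and medians between -0.12 and 0.08.

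No marker of other cells passed the edgeR test; DESeq2 called KDR and FGB, a fibrinogen chain, lower and AGER, of alveolar cells, higher, and voom called KDR and APOA1, a plasma apolipoprotein, lower. Of 16 leukocyte markers 6 were tested, and their summed level over all 16 was 5.11 to 9.05 CPM in KT and 7.42 to 9.74 CPM in HT; the B cell marker MS4A1 was at 0 in all 8 libraries. Of 14 erythroid and plasma markers 6 were tested, all 6 below 0 (median -0.88), with a summed level of 23.4 to 84.5 CPM in KT and 35.7 to 73.5 CPM in HT. HT1 carried most of the low-level ones: ALB, serum albumin, was counted 3, 1, 0 and 5 times in KT and 110, 10, 10 and 5 times in HT, and the neutrophil gene S100A9 10, 12, 9 and 24 times in KT and 238, 16, 16 and 12 times in HT. Endothelial markers summed to 55.9 to 68.7 CPM in KT and 98.5 to 115 CPM in HT, a gap that follows KDR. Of the 9 tested, 4 were above 0 and 5 below. FLT1 averaged 15.6 CPM in KT and 19.1 CPM in HT, EGFL7 6.30 and 5.66 CPM, and ESAM 1.60 and 1.19 CPM. CDH5 and EMCN were at or near 0 (CDH5 at most 0.0677 CPM, EMCN at 0). Markers of macrophages and neutrophils summed to 41.1 to 66.1 CPM in KT and 36.1 to 55.3 in HT, of fibroblasts to 78.2 to 124.5 and 70.1 to 112, of lung epithelium to 109 to 206 and 139 to 153, and of adipocytes to 102 to 153 and 154 to 164. Single genes carried most of 3 of these sums: CD68 (means 46.6 CPM in KT and 34.4 in HT), KRT18 (132 and 134) and LPL (115 and 146). PPARG, also in the adipocyte list, went the other way from LPL (18.1 and 13 CPM). ADIPOQ, LEP, FABP4 and RETN were at or near 0, as were the surfactant genes (SFTPB 0.0333 and 0.233 CPM, SFTPC 0). Fewer cells of a type and less RNA per cell cannot be told apart in bulk RNA. Cells of the host are mouse cells, while the counts are of human gene symbols on hg38. Whether mouse reads were removed is not given, so human transcripts and mouse reads placed on human genes cannot be told apart either. The part of these markers in the gene results was not tested. Without HT1 the 27 genes kept their direction and 13 of them still passed. These genes were picked with HT1 in the fit, so that count is no test of the markers' part.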

How the data were processed

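The authors deposited 1 table of expected counts, as RSEM estimates them, with 26475 gene symbols in rows and 16 libraries in columns, not normalized for depth; 13% of the values are not whole. Per the submitters' processing notes, Bowtie2 2.1.0, RSEM 1.2.15 and the hg38 genome were used, with no role or order given. Which annotation and strand setting were used, and whether mouse reads were removed, is not given in the sources used here. Per the labels' protocols, RNA was selected by its poly-A tail.

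Counts were rounded to whole numbers, filtered with filterByExpr by group and scaled by TMM. All 16 libraries entered a robust quasi-likelihood fit of group means in edgeR 4.0.16 (R 4.3.3), which put 16012 genes to the test at a biological coefficient of variation of 0.228, with contrasts KT minus HT, KC minus HC and the difference between them; p-values were adjusted over all genes by Benjamini-Hochberg at a threshold of 0.05. CPM refer to TMM-scaled library sizes, and SE is the log2 fold change divided by the root of F. Depth was 37099900 to 59222800 counts in the KT and HT libraries; intervals cover counting error only. DESeq2 1.42.0, limma 3.58.1 (voom) and the other settings given at the end were alternatives.

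Named genes were all 27 past the test, the 2 members of each list with the smallest p, BRAF, MAP2K1, MAP2K2 and 3 ketone body enzymes; a few others that these rules took are not reported here; ALB and the other markers with values were chosen after these were seen. The 47 gene lists (40 of pathways, 7 of other cell types) had 933 of 959 entries in the table. The comparison, its members and the lists were chosen with earlier results of these data known. Gene positions are from GENCODE 29, and promoter sequences from RefSeq.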

Additional observations from a re-analysis of the deposited data

Results flagged for a closer look

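In 13 of 238 groups of 4 libraries (each named gene and the ribosomal RNA share, in KT and in HT) the highest or lowest library stood far from the other 3 (Dixon's test at the 95% level, which flags about 1 group in 20 by chance, or 11.9 of 238, so the number is near that of chance). Of the high values, KT4 had 182 CPM of DDIT3, 6.51 CPM of NUPR1 and 193 CPM of SNHG1, KT3 had 249 CPM of HSPA1B, KT1 had 10.3 CPM of CPT1C and 3.54 CPM of CRABP2, and KT2 had 0.379 CPM of MBL2. HT1 had 42.7 CPM of ITGA10 and 4.33 CPM of S100A9, and HT3 had 2.47 CPM of HIST2H4A. Of the low values, KT3 had 67.1 CPM of CXCL8 and a ribosomal RNA share of 4.10%, and HT4 had 418 CPM of RPL5.

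The diet effect differed between the presence and absence of inhibitors (edgeR test of the difference, adjusted p under 0.05) in 47 of the 118 named genes, against 9.02% of all tested genes; the named genes were chosen in part by the KT and HT test and by the size of this difference, so the counts cannot be compared. Each value is the log2 fold change KT over HT minus that of KC over HC. Among the genes past the test between KT and HT, it was above 0 for EIF3J-AS1 (1.24), LINC01138 (0.999), PCOLCE2 (1.18), KNOP1 (1.12), ZNF204P (1.19) and LOC283575 (1.92), and below 0 for KRT6B (-2.36), TRHDE (-2.66), ATP8B4 (-1.63), SERTAD4 (-1.14), FLI1 (-1.78), GAS1 (-0.909), NUAK1 (-1.13), TMEM2 (-0.907), ANPEP (-1.34), SLC39A14 (-0.493), CARD6 (-1.08), ELL2 (-1.04), ENPEP (-4.63), IL1R1 (-1.68), LRRC8A (-0.565), SLCO4A1 (-0.785) and VPS18 (-0.557). Among the other named genes, it was above 0 for BBC3 (1.04), NUPR1 (4.9), RPL36 (0.792), RPL5 (0.608), SNHG3 (0.854), SNHG1 (1.84), ACTA2 (1.24), AGER (1.59) and LAMP3 (2.09), and below 0 for ARAF (-0.446), EPHA4 (-1.47), KDR (-1.52), BCL2A1 (-0.998), THBS1 (-1.31), WNT5A (-0.916), CRIM1 (-0.848), SLC16A6 (-1.54), SLC2A1 (-0.678), FEN1 (-1.66), CCNE1 (-0.619), CTSB (-0.755), DKK1 (-3.17), ROBO4 (-2.46) and LPL (-0.975).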

How the results depend on the processing

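All 27 genes past the test between KT and HT kept their direction in every alternative in which they were fitted, but the number past the test moved. Against 27 it was 1 with library size alone (0 higher, 1 lower), 345 with DESeq2, 1057 with voom, 0 with the compared libraries alone, 0 with the ribosomal RNA share in the fit, 0 with a 1.5-fold minimum (297 at an unadjusted p under 0.05), 52 without KT4 and HT1, 3 without the libraries with over 30% ribosomal RNA, and 3 to 64 with 1 library left out. The settings without KT4 and HT1, without the libraries with over 30% ribosomal RNA and without libraries of the groups not compared were chosen after seeing the data, as was the block with the compared libraries alone. RLE factors (28), ribosomal RNA genes left out (26), no filter (26) and at least 1 CPM in 4 libraries (35) changed it less.

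Between KC and HC, against 2163 genes, the count was 6393 with voom, 3346 with the compared libraries alone, 10 with the 1.5-fold minimum, 3349 without KT4 and HT1, 0 without the libraries with over 30% ribosomal RNA, and 778 to 3200 with 1 library left out. For the difference, against 1444, it was 238 with library size alone, 2487 with DESeq2, 5208 with voom, 30 with that share in the fit, 1 with the 1.5-fold minimum, 2982 without KT4 and HT1, 0 without the libraries with over 30% ribosomal RNA, and 407 to 2636 with 1 library left out. The log2 difference of the ribosomal RNA share was -1.44 to -1.09 with 1 library left out.

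Replicate numbers did not pair the libraries (correlations of same-numbered KT and HT libraries 0.207, 0.0256, -0.00265 and 0.132). With the replicate block 21 genes passed, 15 of them among the 27, and with the block and the compared libraries alone 2 passed.

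Of the named genes' values under other settings, 3033 kept direction and call, 409 lost and 49 gained a call, and 28 changed sign, none of them of a gene past the test. The log2 values that changed sign were, with library size alone, ARAF 0.0080, DKC1 0.0086, BRAF 0.16, MAP2K1 0.062, MAP2K2 0.14 and OXCT1 0.059. With voom they were HIST1H1C -0.44, HIST2H4A -0.64, PTPRC 0.13, BRAF 0.11 and OXCT1 0.043, and with the compared libraries alone BRAF 0.0020. With the share in the fit they were TYR -0.067, CA9 -0.57, LAPTM5 -0.081 and MAP2K2 0.014, and without KT4 and HT1 PTPRC 0.0066 and BRAF 0.13. With 1 library left out HSPA1B ranged from -0.11 to 1.08, PTPRC from -1.04 to 0.15, S100A9 from -2.72 to 0.036, LAMP3 from -0.11 to 0.51, BRAF from -0.12 to 0.067, MAP2K2 from -0.14 to 0.052 and OXCT1 from -0.21 to 0.0097. The cause was not tested for any of these.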

Other observations

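By RefSeq gene type, a grouping chosen after the values were seen, long non-coding RNAs were more often higher than lower in KT. Of 1051 tested, 13.4% were higher and 2.0% lower at an unadjusted p under 0.05, and their median log2 fold change was 0.23, with 71.2% above 0. The median was 0.14 without KT1 (9.32% higher, 2.85% lower) and 0.39 when scaling by library size alone, and with the ribosomal RNA share in the fit 4.76% were higher and 0.951% lower. Of 14010 protein-coding genes 6.41% were higher and 5.95% lower, with a median of 0.01, and of 438 transcribed pseudogenes 11.9% and 1.6%, with a median of 0.15. Without inhibitors the median of the long non-coding RNAs was -0.25. KT1 had the highest median level of these RNAs, 0.36 log2 units above the mean of the 8 libraries, against 0.00 to 0.09 in the other KT libraries and -0.17 to -0.02 in HT.

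TRHDE, ANPEP and ENPEP belong to the M1 family of metallopeptidases, a list drawn up after these genes had been seen to pass. Of its 12 members among the deposited genes, 11 were tested, these 3 were lower in KT, 0 were higher, and the other 8 lay between -0.35 and 0.25 on the log2 scale. Over all tested genes 0.119% were lower, but the list was built around these 3, so the shares cannot be compared. ENPEP had 3 counts in KT and 74 in HT, and its call was lost in all 8 fits that left out 1 KT or HT library. LTA4H, which makes leukotriene B4, averaged 99.3 CPM in KT and 83.3 CPM in HT (log2 0.25, edgeR adjusted p = 0.359) and 115 CPM in KC and 159 CPM in HC (log2 -0.47, edgeR adjusted p = 0.0141).

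The 25 genes past the test that had a chromosome in RefSeq lay on 15 chromosomes, with at most 4 on any, and the median log2 fold change by chromosome ran from -0.01 to 0.06 over 23 chromosomes.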
